A study of Saccharomyces cerevisiae with 12 samples.

Results

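The genes described here encode the proteins of the large (60S) subunit of the cytosolic ribosome of budding yeast, Saccharomyces cerevisiae. They were taken by name: every gene whose symbol is RPL followed by a number, with or without a copy letter A or B, and the stalk genes RPP0, RPP1A, RPP1B, RPP2A and RPP2B. All 81 were found in each of the 3 tables among 5085 genes, and all 81 were tested there by the authors. Of these, 66 form 33 pairs of gene copies, 10 are single-copy genes and 5 encode the stalk.

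RNA sequencing compared cells grown in log phase with 0.01, 0.1 or 0.5 µg/mL doxycycline (Dox) with cells of the same strain in the control group, 3 samples per group and 12 in all. The strain, TH_5234, is MATa with the markers his3-1, leu2-0 and met15-0. Its RAP1 promoter is replaced by pRAP1::kanR-tetO7-TATA, and URA3::CMV-tTA supplies the tetracycline-controlled activator that doxycycline releases, so the control carries both alleles too. Whether the samples of 1 group came from separate cultures is not stated, so the authors' test measures a spread between samples that may be technical. The tables name the control WT, and the 3 comparisons share the control samples. The series was designed to compare 3 intended levels of reduced RAP1 expression with the control.

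Each ribosome holds 1 copy of nearly every large subunit protein, and a growing yeast cell spends much of its transcription on these genes. Rap1 binds upstream of most of them and recruits the activators Fhl1 and Ifh1, and Abf1 and Reb1 are other general regulatory factors that bind yeast promoters. The stalk is the exception to the single copy: its base protein P0 carries several acidic P1 and P2 proteins, which recruit the elongation factors. Because of an ancient genome duplication most of the other proteins are encoded by 2 genes that differ little in sequence.

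Each level is a single FPKM value (fragments per kilobase of transcript, corrected for sequencing depth) that the authors pooled over 3 samples, so no level has an SD, and the depth is unknown. Log2 fold changes are the doxycycline level over the control level of the same table. A gene was called where the authors' q, an adjusted p from Cuffdiff, was below 0.05, and "fell" is used only of such genes. The tables were scaled separately. Where a gene's levels at all doses are given in a row, the control level is that of the 0.5 µg/mL table, and the control columns of the tables differed by at most 0.45% for these genes. In a bulk culture a lower level in every cell and a lower level in a part of the cells cannot be told apart.

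RAP1 mRNA itself had log2 fold changes of 0.07, -0.02 and -0.52 at 0.01, 0.1 and 0.5 µg/mL, with q = 0.827, 0.935 and 0.00764 in the authors' deposited tables. Checked against the labelled mating type, the a-cell genes MFA1, MFA2, STE2, BAR1, ASG7 and STE6 were present at 54.0 FPKM or more in every group. Of the genes that mark alpha cells, STE3 and MF(ALPHA)1 lay between 8.09 and 27.2 FPKM, while SAG1 and MF(ALPHA)2 lay between 69.1 and 253 FPKM and so were not near 0. Over all tested genes the median was -0.08, -0.03 and -0.30 on the log2 scale at the 3 doses.

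Most large subunit genes fell at each dose, and none was called higher. At 0.01 µg/mL 64 of 81 were called lower (79.0%), against 15.4% of all tested genes. At 0.1 µg/mL 72 of 81 were called lower (88.9%), against 20.4% of all tested genes. At 0.5 µg/mL 74 of 81 were called lower (91.4%), against 38.9% of all tested genes. Calls of higher levels made up 8.75%, 17.6% and 7.49% of all tested genes at the 3 doses and 0 of the 81 by Cuffdiff's q. With at least a 2-fold change they made up 2.32%, 4.23% and 2.48% of all tested genes. Unadjusted p-values were not analysed here, and 2, 2 and 3 of the 81 had a log2 fold change above 0.

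The median log2 fold change of the 81 genes was -0.77 at 0.01 µg/mL, -0.92 at 0.1 µg/mL and -1.02 at 0.5 µg/mL. As percent changes these are -41.5%, -47.0% and -50.8%. Read from the median of all tested genes of the same table, the 3 medians were -0.70, -0.89 and -0.72. The members varied widely, between -1.70 and 0.08 at 0.01 µg/mL, -2.33 and 0.08 at 0.1 µg/mL, and -2.58 and 0.10 at 0.5 µg/mL. Calls with at least a 2-fold fall numbered 17, 31 and 44 of the 81, against 1.92%, 4.47% and 10.1% of all tested genes.

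**Figure D1:**
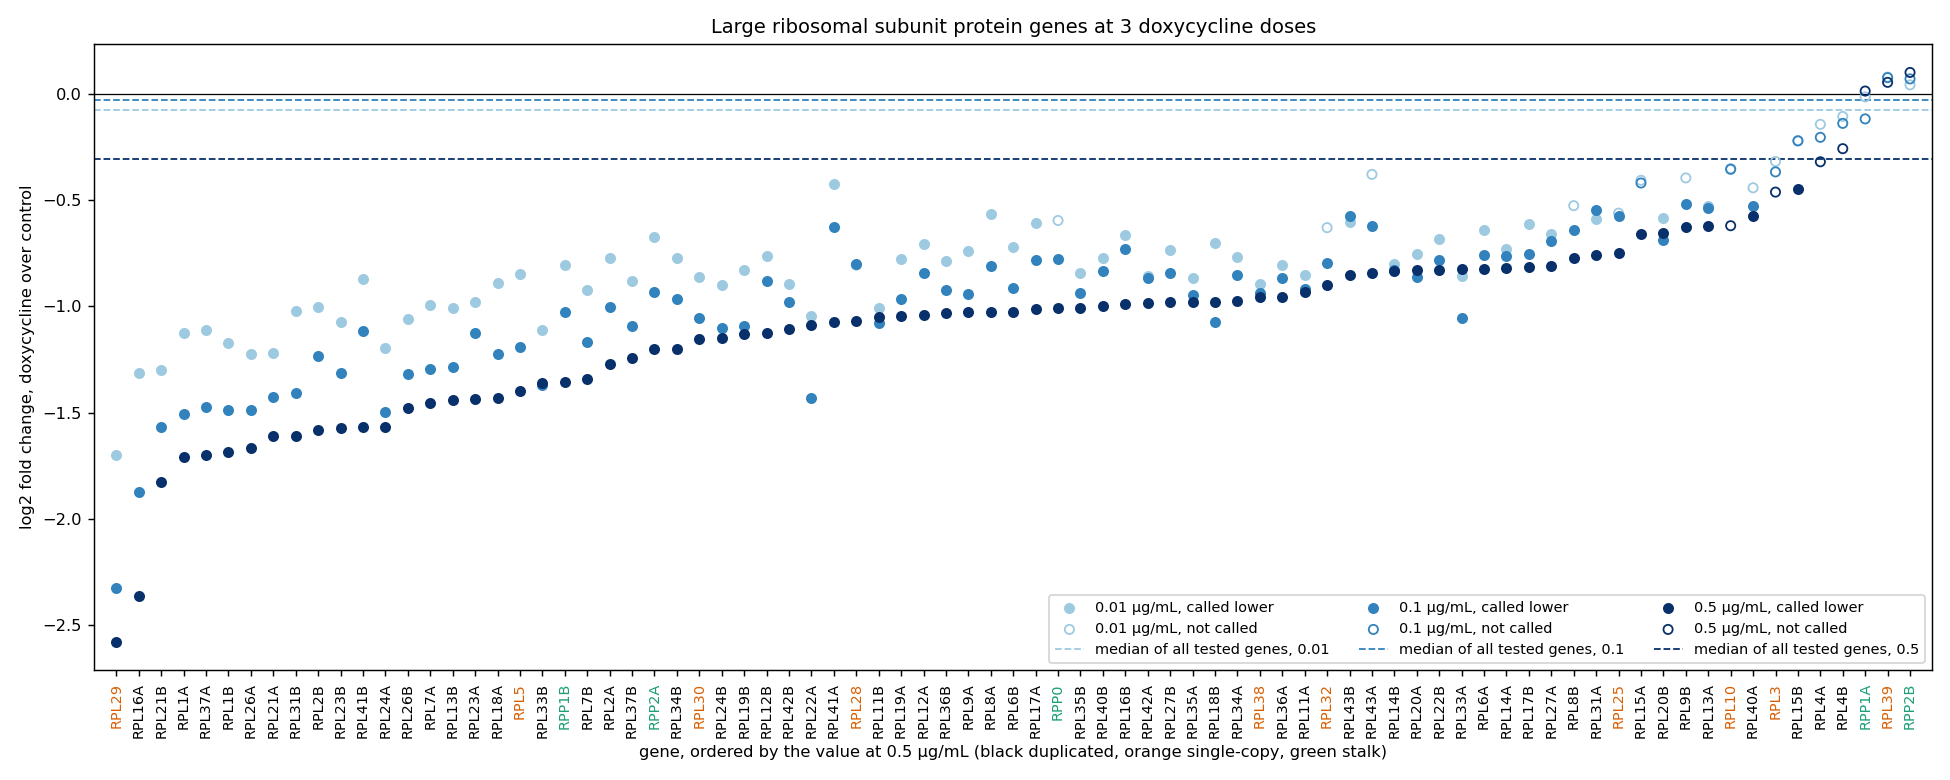
Log2 fold change (doxycycline over control) of each of the 81 genes at 3 doses, ordered by the value at 0.5 µg/mL; filled points were called lower and open points were not called, dashed lines are the medians of all tested genes. RPL29 and RPL16A lie below the rest, and RPP1A, RPL39 and RPP2B lie at about 0.

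The 81 genes together made up 16.8% of the summed FPKM at 0.01 µg/mL, against 22.5% in the control of that table. They made up 14.4% at 0.1 µg/mL and 14.1% at 0.5 µg/mL, against 22.5% in the control of either table. RPL41A and RPL41B alone held 33.3% of the members' sum at 0.5 µg/mL, against 44.3% in the control. RPL39 held 19.9% of it at 0.5 µg/mL, against 10.3% in the control. The coding sequences of these genes are only 78 and 156 bases long, and how FPKM was corrected for such short genes is not stated. The 77 genes with a coding sequence of at least 200 bases summed to 109364 FPKM at 0.5 µg/mL, against 193437 FPKM in the control. These 77 leave out RPL29, RPL39, RPL41A and RPL41B.

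The 10 single-copy genes lay between -1.70 and 0.08 at 0.01 µg/mL, -2.33 and 0.08 at 0.1 µg/mL, and -2.58 and 0.05 at 0.5 µg/mL. RPL29 (YFR032C-A, chrVI:223258-223437 in R64, minus strand), a small protein that yeast can live without, had the lowest value of all 81 at each dose. Its level was 5177 FPKM in the control, 1601 at 0.01, 1032 at 0.1 and 866 FPKM at 0.5 µg/mL. The log2 fold changes were -1.70, -2.33 and -2.58, with q = 0.000608, 0.000329 and 0.000273 in the authors' deposited tables. These q-values were the smallest of any of the 81 genes. They were shared by 35, 51 and 58 of the 81 genes, so they do not set RPL29 apart. The level of RPL29 had a 5.98-fold fall at 0.5 µg/mL. The coding sequence of RPL29 is only 180 bases long, and how FPKM was corrected for such a short gene is not stated.

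Among the other single-copy genes, those for RPL5, RPL28, RPL30, RPL32, RPL38 and RPL25 were called lower at 0.5 µg/mL. RPL5, which binds the 5S rRNA, had 1639 FPKM in the control and 913, 718 and 622 FPKM at the rising doses (log2 fold changes -0.85, -1.19 and -1.40). RPL30, whose protein binds its own transcript and limits its splicing, had log2 fold changes of -0.86, -1.05 and -1.15, and RPL38 had -0.89, -0.94 and -0.96. RPL28, the protein altered in cycloheximide-resistant mutants, had -0.81, -0.80 and -1.07.

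RPL32 had -0.63, -0.80 and -0.90. RPL25, which lies at the exit of the peptide tunnel, had -0.56, -0.58 and -0.75. RPL28, RPL32 and RPL25 were not called at 0.01 µg/mL, with q = 0.0846, 0.0607 and 0.0833 in the authors' deposited table.

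The remaining 3 single-copy genes were not called at any dose. RPL3, which reaches towards the peptidyl transferase centre, had 4339 FPKM in the control and 3496, 3368 and 3150 FPKM at the rising doses. Its log2 fold changes were -0.32, -0.37 and -0.46, with q = 0.532, 0.25 and 0.179 in the authors' deposited tables. RPL10, which joins the subunit late, in the cytoplasm, had log2 fold changes of -0.35, -0.35 and -0.62, with q = 0.502, 0.301 and 0.0727 in the authors' deposited tables. RPL39 (YJL189W, chrX:75933-76474 in R64, plus strand), a very small protein of the tunnel wall, had 45114 FPKM in the control and 47864, 47632 and 46857 FPKM at the rising doses. Its log2 fold changes were 0.08, 0.08 and 0.05, with q = 0.923, 0.881 and 0.914 in the authors' deposited tables.

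The 5 stalk genes had unequal values. RPP0, the base of the stalk, had 1891 FPKM in the control and 1257, 1104 and 940 FPKM at the rising doses. Its log2 fold changes were -0.60, -0.78 and -1.01, called at both higher doses, and the lowest dose had q = 0.102 in the authors' deposited table.

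The acidic proteins P1 and P2 have 2 genes each. In yeast the RPP1A protein pairs by preference with that of RPP2B, and the RPP1B protein with that of RPP2A. RPP1B (YDL130W) had 3642 FPKM in the control and 2093, 1789 and 1424 FPKM at the rising doses. RPP2A (YOL039W) had 5421 FPKM in the control and 3416, 2844 and 2361 FPKM. Both fell at each dose, RPP1B with log2 fold changes of -0.81, -1.03 and -1.35, and RPP2A with -0.67, -0.93 and -1.20.

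RPP1A (YDL081C) had 10000 FPKM in the control and 9948, 9228 and 10096 FPKM at the rising doses, and RPP2B (YDR382W) had 11593 FPKM in the control and 11993, 12189 and 12436 FPKM. Neither was called at any dose. RPP1A had log2 fold changes of -0.01, -0.12 and 0.01, with q = 0.984, 0.748 and 0.972 in the authors' deposited tables. RPP2B had 0.04, 0.07 and 0.10, with q = 0.947, 0.859 and 0.784 in the authors' deposited tables. RPP1A made up 87.6% of the P1 level at 0.5 µg/mL, against 73.3% in the control, and RPP2B made up 84.0% of the P2 level, against 68.1% in the control. No test of the difference between the stalk genes can be had from pooled levels, and the log2 fold changes differed by 1.37 for P1 and 1.3 for P2 at 0.5 µg/mL.

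**Figure D2:**
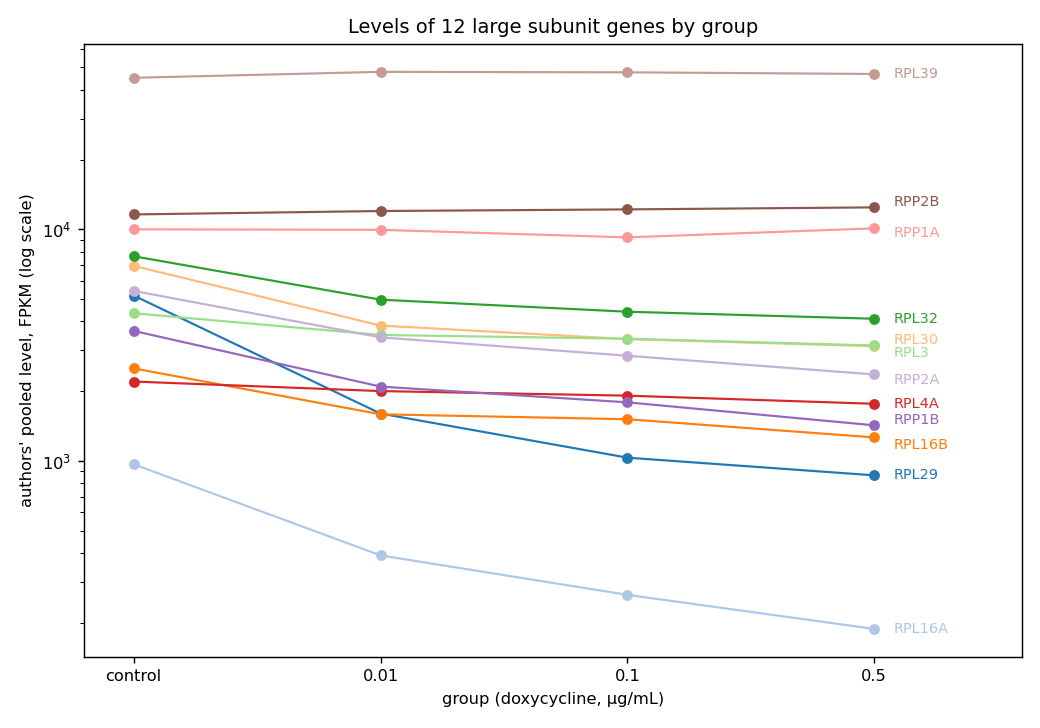
The authors' pooled level (FPKM, log scale) of 12 large subunit genes in the control and at 0.01, 0.1 and 0.5 µg/mL doxycycline, with the control of the 0.5 µg/mL table; the tables were scaled separately. RPL29 and RPL16A have the steepest lines, RPP1B and RPP2A slope down, and RPP1A, RPP2B and RPL39 run nearly level.

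Of the 66 duplicated genes, 58, 62 and 64 fell at 0.01, 0.1 and 0.5 µg/mL, against 15.4%, 20.4% and 38.9% of all tested genes. Their medians were -0.78, -0.93 and -1.03. The 10 single-copy genes fell in 4, 7 and 7 cases, with medians of -0.72, -0.80 and -0.93, and the 5 stalk genes in 2, 3 and 3 cases. The medians of single-copy and duplicated genes lay 0.06, 0.13 and 0.10 apart on the log2 scale. The single-copy genes were also the more abundant, with a median of 4916 FPKM in the control of the 0.01 µg/mL table, against 1784 FPKM for the duplicated genes. Members not called at that dose had a median control level of 4179 FPKM, and those called lower one of 1843 FPKM. The part of level in the calls was not tested.

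Level and change moved together weakly across the 81 genes. Spearman's rho between control level and log2 fold change was 0.319 at 0.01 µg/mL, 0.314 at 0.1 µg/mL and 0.186 at 0.5 µg/mL, as a description across genes that share their libraries and whose fold change contains the control level. Among the 27 least abundant genes the median log2 fold changes were -0.86, -1.07 and -1.05 at the rising doses. Among the 27 most abundant genes they were -0.63, -0.78 and -0.99. Coding length had a rho of 0.154, 0.0758 and 0.0708.

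**Figure D3:**
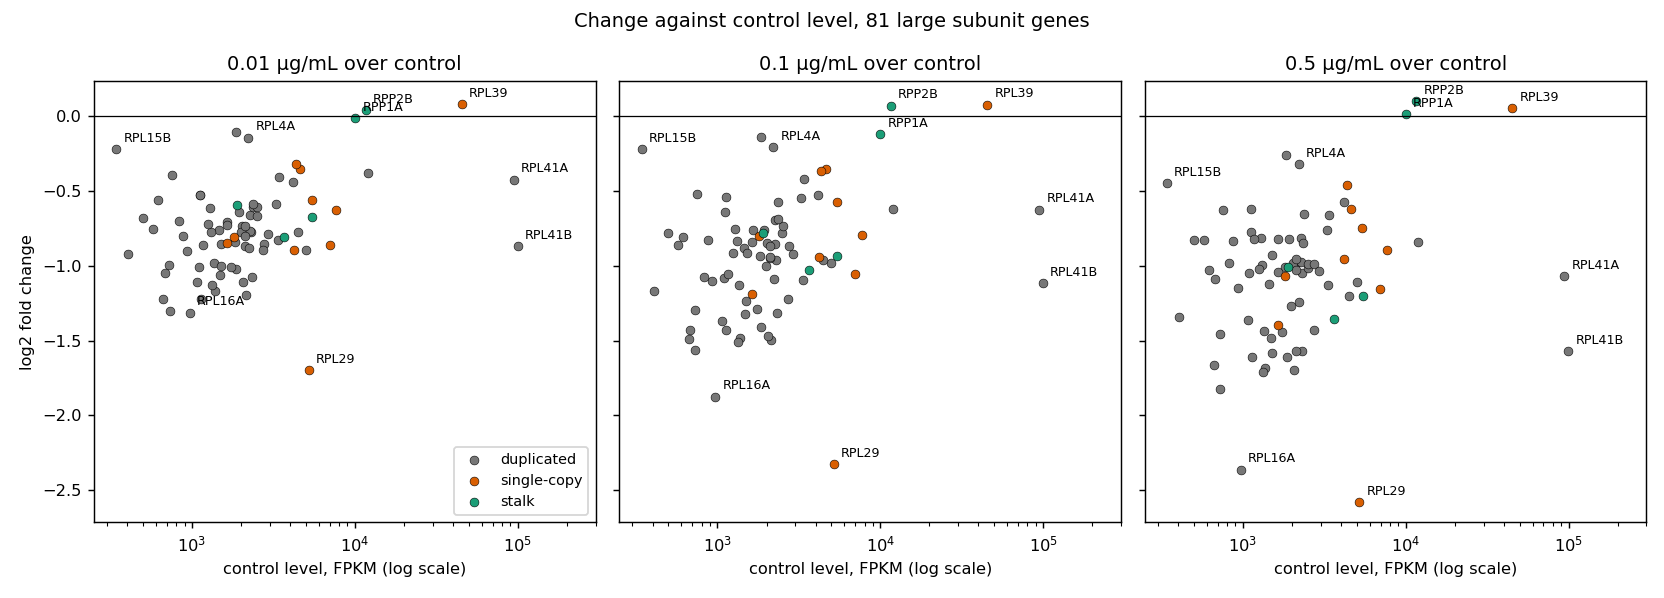
Log2 fold change against control level (FPKM, log scale) for the 81 genes at each dose, by class. RPL39, RPP1A and RPP2B are abundant and lie at about 0, while RPL41A and RPL41B are more abundant still and lie at -1.07 and -1.57 at 0.5 µg/mL.

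The 2 copies of a protein differed by less than 0.25 on the log2 scale in 24, 23 and 20 of 33 pairs at the 3 doses. Differences between unrelated members were not computed for comparison. In 27 of 33 pairs both copies fell at 0.01 µg/mL, in 31 at 0.1 µg/mL and in 32 at 0.5 µg/mL. Of the 66 duplicated genes 87.9%, 93.9% and 97.0% fell, against 15.4%, 20.4% and 38.9% of all tested genes. With such shares, the counts of pairs say little about likeness between copies. The median difference between the copies, regardless of sign, was 0.15, 0.16 and 0.20 on the log2 scale. Differences over 0.5 occurred in 1, 4 and 4 pairs. The copy with the higher control level had the lower log2 fold change in 15, 17 and 15 of the 33 pairs at the 3 doses. The levels of both copies added together had log2 fold changes between -1.70 and -0.29 at 0.5 µg/mL, with a median of -1.06.

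How far reads can be assigned to a copy differs between pairs. The coding sequences of the copies are between 78.9% and 99.4% identical (median 93.7%), and 12 of the 33 pairs share an unbroken identical stretch of at least 100 bases. In 5 pairs, RPL1, RPL4, RPL35, RPL41 and RPL42, the identity is at least 98%. How reads matching both copies were counted is not stated, so single copies of such pairs are uncertain and the sum is the firmer value. The extreme case is RPL41, whose 25-residue protein is the smallest of the ribosome and whose coding sequences, printed as an example with the differing base in capitals, differ at 1 of 78 positions.

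RPL41A (YDL184C, chrIV:130407-130484, minus strand): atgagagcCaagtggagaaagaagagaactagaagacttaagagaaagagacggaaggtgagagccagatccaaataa
RPL41B (YDL133C-A, chrIV:221724-221801, minus strand): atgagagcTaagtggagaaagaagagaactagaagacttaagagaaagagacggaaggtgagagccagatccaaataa

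RPL41A had 44795 FPKM at 0.5 µg/mL, against 94151 FPKM in the control, and RPL41B had 33477 FPKM, against 99346 FPKM. Their summed log2 fold change at that dose was -1.31.

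The largest difference between copies was in RPL16. RPL16A (YIL133C, chrIX:98527-99416 in R64, minus strand) had 967 FPKM in the control and 391, 264 and 188 FPKM at the rising doses, with log2 fold changes of -1.31, -1.87 and -2.36. RPL16B (YNL069C, chromosome XIV) had 2508 FPKM in the control and 1589, 1513 and 1263 FPKM, with -0.67, -0.73 and -0.99. Copy A made up 12.96% of the RPL16 level at 0.5 µg/mL, against 27.8% in the control. The coding sequences of this pair are 86.5% identical, with no shared stretch over 29 bases.

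In RPL31, whose protein lies beside the tunnel exit, copy B fell more: RPL31B had log2 fold changes of -1.02, -1.41 and -1.61, and RPL31A had -0.59, -0.54 and -0.76. RPL13 behaved alike, with -1.01, -1.29 and -1.44 for RPL13B and -0.53, -0.54 and -0.62 for RPL13A. The more abundant copy of RPL13 changed: RPL13A had 729 FPKM and RPL13B 639 FPKM at 0.5 µg/mL, against 1122 and 1735 FPKM in the control. In RPL33, copy B had -1.11, -1.37 and -1.36 and copy A had -0.86, -1.06 and -0.82. In RPL37, copy A had -1.11, -1.47 and -1.70 and copy B had -0.88, -1.09 and -1.24. All members of these 4 pairs were called lower at each dose.

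Low values were shared by both copies in RPL21 and in RPL1, the protein of the mobile L1 stalk. RPL21B had log2 fold changes of -1.30, -1.57 and -1.83, and RPL21A had -1.22, -1.43 and -1.61. RPL1A had 406 FPKM at 0.5 µg/mL, against 1327 FPKM in the control, and RPL1B had 427 FPKM, against 1372 FPKM. Added together the copies of RPL1 had a log2 fold change of -1.70 at that dose. RPL26A had -1.22, -1.49 and -1.67, and RPL24A had -1.20, -1.50 and -1.57.

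At the other end stood RPL4, whose protein extends a loop into the peptide tunnel. RPL4A (YBR031W, chromosome II) had 2201 FPKM in the control and 2001, 1912 and 1764 FPKM at the rising doses, with log2 fold changes of -0.14, -0.20 and -0.32. RPL4B (YDR012W, chromosome IV) had 1842 FPKM in the control and 1719, 1675 and 1541 FPKM, with -0.11, -0.14 and -0.26. Neither was called at any dose, and at the highest dose the authors' deposited table gave q = 0.323 for RPL4A and 0.422 for RPL4B. At 0.5 µg/mL the summed level of the copies of RPL4 had a log2 fold change of -0.29, close to the median of all tested genes.

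RPL15 was the most unequal pair, with RPL15A 9.94 times as abundant as RPL15B in the control. RPL15B, the least abundant member in the control, had 251 FPKM at 0.5 µg/mL, against 341 FPKM in the control (log2 fold change -0.45, q = 0.0394 in the authors' deposited table), and RPL15A had a log2 fold change of -0.66. Neither copy was called at the lower doses. RPL40A and RPL40B encode the ribosomal protein fused to ubiquitin. RPL40A had log2 fold changes of -0.44, -0.53 and -0.58 and RPL40B had -0.77, -0.84 and -0.9975.

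**Figure D4:**
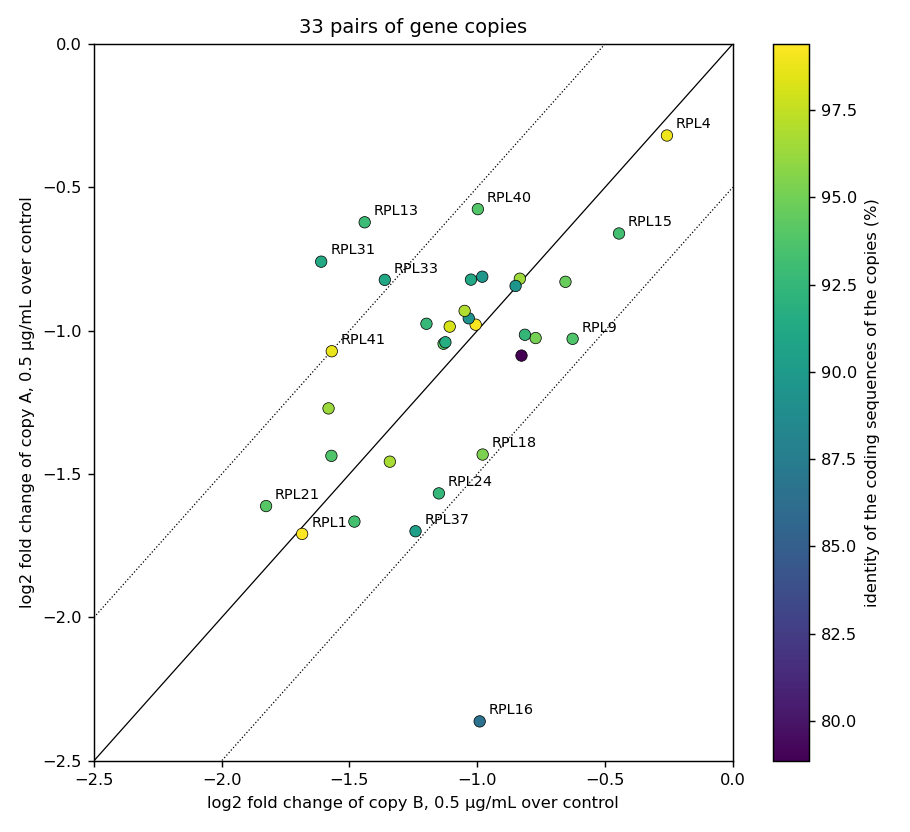
Log2 fold change at 0.5 µg/mL of copy A against that of copy B for the 33 pairs, coloured by the identity of their coding sequences (%); the solid line marks equal change and the dotted lines a difference of 0.5. RPL16 lies below the lower dotted line, RPL13, RPL31 and RPL33 lie above the upper one, and RPL4 lies nearest to 0.

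Levels of the proteins' messages became less even. Over the 40 proteins whose genes have at least 200 coding bases, outside the stalk and with copies added together, the SD of the log2 level was 0.905 at 0.5 µg/mL, against 0.750 in the control. The corresponding SD was 0.871 at 0.01 µg/mL and 0.916 at 0.1 µg/mL, against 0.750 in the control of each table. The lowest and highest sums were those of RPL7 and RPL43 in every group. RPL7 had 423 FPKM at 0.5 µg/mL, against 1128 FPKM in the control, and RPL43 had 7957 FPKM, against 14292 FPKM.

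Upstream sequences were read from the R64 genome. The core of the Rap1 site, taken as ACCCNNACA on either strand, was searched in the 600 bases before each start codon. It was found for 39 of 81 large subunit genes (48.1%), against 6.41% of all 4992 genes with a full window. Among the small subunit genes it was found for 18 of 57 (31.6%), so it is not particular to the large subunit. The 43 matches of the large subunit genes lay between 162 and 523 bases before the start codon, with a median of 314. Of these, 31 were on the strand of the gene. The core allows no mismatch, so a gene without a match is a gene without these letters in this window.

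Examples are printed to show the site beside the values: genes among the lowest, both copies of RPL13, a stalk gene and a gene nearer to the upper end. Each is written along the strand of the motif, with the core in capitals and 10 bases on either side, in R64 coordinates. RPL13A, RPL13B and RPL2B have 2 matches each, of which 1 is printed.

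RPL1B (chrVII:254320-254348, plus strand): acatttttgaACCCATACAtctttcaata
RPL26A (chrXII:819032-819060, minus strand): ggattagttaACCCATACAttacatgaaa
RPL2B (chrIX:316344-316372, plus strand): tcagactagaACCCATACAttattttaca
RPL23B (chrV:396389-396417, plus strand): acttttgtgaACCCAAACAttttttgttt
RPL41B (chrIV:222127-222155, minus strand): cggttaccacACCCGTACAcccttatctc
RPL13B (chrXIII:551520-551548, minus strand): tacattacgcACCCATACAtttatagttt
RPL13A (chrIV:308196-308224, plus strand): ttaatatgtgACCCATACAtttcctgtta
RPP1B (chrIV:229622-229650, plus strand): attcctttaaACCCATACAtatcttacac
RPL20B (chrXV:901532-901560, minus strand): gggactgttcACCCGTACAttttacgttt

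The same letters stand upstream of genes with unlike changes. RPL1B and RPL13A carry the identical core, at log2 fold changes of -1.69 and -0.62 at 0.5 µg/mL. The cores of RPL41B and RPL20B are identical too, at -1.57 and -0.65. RPL1B and RPL41B belong to pairs with near-identical copies, so their single values are uncertain. RPL2B had -1.004, -1.24 and -1.58 at the rising doses and RPL23B had -1.07, -1.31 and -1.57.

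All 39 genes with the core fell at 0.1 and at 0.5 µg/mL, and 37 fell at 0.01 µg/mL. Of the 42 genes without it, 27, 33 and 35 fell, where 15.4%, 20.4% and 38.9% of all tested genes fell. The genes not called at 0.5 µg/mL, RPL3, RPL4A, RPL4B, RPL10, RPL39, RPP1A and RPP2B, all lack the core, but RPL10 has a match to a longer Rap1 consensus, with at most 1 mismatch, 270 bases before the start codon. The median was -0.80, -0.94 and -1.03 for genes with the core, against -0.67, -0.81 and -0.99 for genes without it. The difference of the medians, -0.12 at 0.1 µg/mL and -0.05 at 0.5 µg/mL, took the other sign in a window of 250 bases, at 0.07 and 0.03. That window holds the core for 8 of the 81 genes, so most of the 39 genes count there as genes without it. The range at 0.5 µg/mL was -1.69 to -0.62 with the core and -2.58 to 0.10 without it. RPL29 and RPL16A, at the low end, have no match to the core either.

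**Figure D5:**
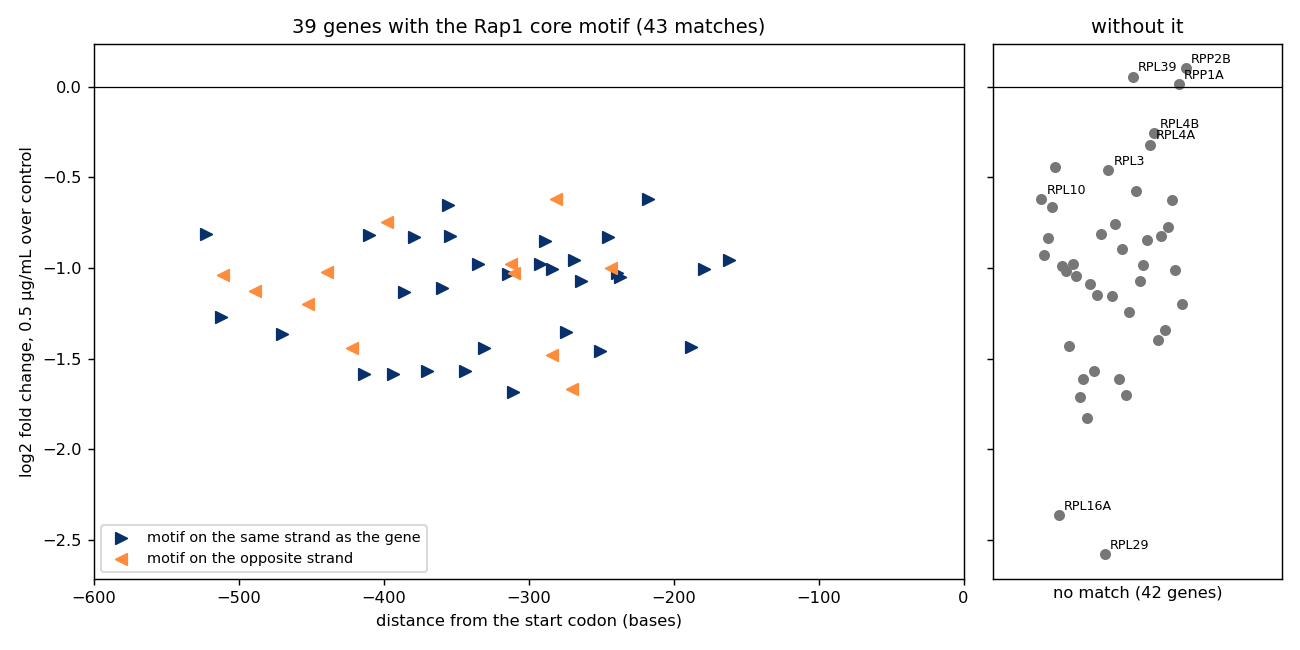
Log2 fold change at 0.5 µg/mL against the distance of the Rap1 core from the start codon (bases) for the 39 genes that hold it, with the 42 genes without a match at the right. Every gene with a match lies between -1.69 and -0.62, and both the lowest and the highest genes are at the right.

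Motifs of the other general regulatory factors were searched in the same windows after the values were known. The Abf1 motif, as TCA and ACG with 6 unspecified bases between them on either strand, was found for 15 of 81 genes (18.5%), against 27.0% of all genes. It stands upstream of both copies of RPL4, and not upstream of RPL3, RPL10, RPL39, RPP1A or RPP2B. The Reb1 motif, as TTACCCG on either strand, was found for 5 of 81 genes (6.17%), against 11.9% of all genes: RPL11A, RPL15B, RPL18B, RPL40A and RPL41B. No match of either shared bases with a match of the core. At 0.5 µg/mL the Abf1 group had a median of -1.01, against -1.03 for the genes without the motif. At 0.01 and 0.1 µg/mL it had -0.66 and -0.78, against -0.79 and -0.92. The Reb1 group had medians of -0.70, -0.92 and -0.93 at the rising doses, against -0.77, -0.92 and -1.03 without the motif. These differences were not tested.

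Some large subunit genes share an upstream region with another ribosomal protein gene. RPL39 and the small subunit gene RPS22A are transcribed away from each other with 630 bases between their coding sequences. RPS22A had log2 fold changes of -0.88, -1.06 and -1.27, while RPL39 had 0.08, 0.08 and 0.05. RPL13A faces RPS16B across 634 bases in the same way, with -0.53, -0.54 and -0.62 for RPL13A and -0.85, -1.11 and -1.17 for RPS16B.

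The second copies of the same proteins also lie back to back, RPL13B and RPS16A, 720 bases apart. These had -1.01, -1.29 and -1.44 for RPL13B and -1.08, -1.28 and -1.52 for RPS16A. RPL24A and RPL30 are separated by 1156 bases, with -1.20, -1.50 and -1.57 for RPL24A and -0.86, -1.05 and -1.15 for RPL30. RPP2A and RPS15, 719 bases apart, had -0.67, -0.93 and -1.20 for RPP2A and -0.61, -0.84 and -1.15 for RPS15.

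Introns, which many yeast ribosomal protein genes carry, were present in the coding region of 53 of the 81 genes. These fell in 48, 52 and 52 cases, against 16, 20 and 22 of the 28 genes without one. Among all tested genes 15.4%, 20.4% and 38.9% fell. RPL39 was the intron-bearing gene not called at 0.1 or 0.5 µg/mL. The medians were -0.80, -0.95 and -1.02 with an intron and -0.65, -0.83 and -1.02 without.

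The small subunit genes are the most like group. Of 57, 49, 53 and 53 were called lower at the 3 doses, against 15.4%, 20.4% and 38.9% of all tested genes. Their medians were -0.85, -1.03 and -1.17, against -0.77, -0.92 and -1.02 for the large subunit genes. No test of the difference between the sets was made.

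Genes that handle large subunit proteins before assembly were lower too. RRB1, ACL4, SQT1, SYO1 and BCP1 are dedicated chaperones, of Rpl3, Rpl4, Rpl10, Rpl5 with Rpl11, and Rpl23 in that order. Of these 5 genes, 4, 4 and 5 fell, against 15.4%, 20.4% and 38.9% of all tested genes. RRB1 had log2 fold changes of -0.54, -0.75 and -1.21 and ACL4 had -0.69, -0.82 and -1.13, whereas their clients RPL3 and RPL4 were not called. SQT1 had -0.36, -0.38 and -0.53, called at the highest dose with q = 0.034 in the authors' deposited table. SYO1 had -0.51, -0.69 and -1.02, and BCP1 had -0.61, -0.67 and -0.92. RPL10, the client of SQT1, was not called. The clients of SYO1 and BCP1, RPL5, RPL11A, RPL11B, RPL23A and RPL23B, were called lower at each dose.

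MRT4, which holds the place of P0 during assembly, had -0.69, -0.88 and -1.02, and YVH1, which releases it, had -0.50, -0.61 and -1.04, called lower at each dose. Of 17 genes of late 60S assembly and export found in the tables, 8, 12 and 14 fell, against 15.4%, 20.4% and 38.9% of all tested genes, with medians of -0.51, -0.69 and -0.93. LSG1, a GTPase of the last cytoplasmic steps, had -0.73, -1.09 and -1.47. REH1, a cytoplasmic assembly factor, had a log2 fold change of 0.41 at 0.1 µg/mL and was called higher there, with q = 0.0466 in the authors' deposited table.

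Of 10 regulators of ribosomal protein genes, 3, 4 and 7 were called lower and none higher, where 15.4%, 20.4% and 38.9% of all tested genes were called lower. Their medians were -0.11, -0.23 and -0.51. ABF1 had -0.61, -0.87 and -1.29, TOD6, a repressor, -0.49, -0.75 and -1.08, and FHL1 -0.41, -0.54 and -0.77, each called at every dose. IFH1 had -0.35, -0.50 and -0.85, called at 0.1 and 0.5 µg/mL. HMO1 (-0.51) and SFP1 (-0.45), both activators, were called at 0.5 µg/mL, as was RAP1. DOT6, STB3 and CRF1, which act as repressors, were not called and had -0.40, -0.16 and -0.0011 there.

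Heat-shock and stress genes moved the other way in the same tables, and their part in the values of the large subunit genes was not tested. Of 8 such genes, 8, 7 and 7 rose at the 3 doses, against 8.75%, 17.6% and 7.49% of all tested genes, with medians of 2.61, 2.38 and 2.04. At 0.5 µg/mL HSP104 had 3.61, HSP82 3.59, HSP42 3.33, DDR2 2.12, CTT1 1.97, SSA4 1.43 and HSP26 1.42, while HSP12 had 0.06 and was not called.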

How the data were processed

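RNA was sequenced from 12 samples in 4 groups of 3, per the labels' protocols as polyA RNA in barcoded TruSeq libraries. Build R64 and the tools FastQC, Bowtie2 and Cuffdiff are named in the submitters' processing notes, without versions or settings. The 3 tables deposited by the authors hold, per the file headers, pooled levels, a log2 fold change and a q-value per gene. The unit FPKM of the deposited levels was inferred from their Cuffdiff column names. Here log2 fold changes were recomputed from the levels without a pseudocount and differed from the log2 values deposited by the authors by at most 1.27e-05. The authors' q-values (adjusted p-values) were used as deposited. Genes at a level of 0 or a q of 1 counted as not tested, leaving 5049, 5054 and 5047 genes. A further 3 lines of each table had been blanked and were not analysed here.

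The members, gene lists and naming rule (all single-copy and stalk genes, the 8 lowest and 6 highest members at each dose, the 6 most unlike pairs, the genes not called at 0.5 µg/mL and the genes of short lists) were chosen with earlier results of these data known. No test of its own was added, since levels are pooled over samples. Group counts and medians are descriptions. Any adjusted p measures the spread between samples that may be technical. Coordinates, introns and sequences came from RefSeq's R64 genome, where all 81 genes were found by identifier; copies were aligned with Biopython 1.88 in Python 3.11.15. A longer Rap1 consensus was also searched with at most 1 mismatch. Counting and motif steps were run on simulated data with planted calls and planted matches of the Rap1 core. That checks only that the code finds what was planted, and false matches were not examined.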

Additional observations from a re-analysis of the deposited data

How the results depend on the processing

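Of 69 alternative values, 53 stayed within 1.5 times the reported value and in its direction. This holds for the median log2 fold changes of the members under each alternative tried (a pseudocount of 1, the median of all genes as origin, copies added together, a mean level of at least 100 FPKM and, chosen after seeing the data, coding lengths of at least 200 bases), for the differences between copies, for single-copy against duplicated genes and for large against small subunit. Some of the 53 could not have differed. Calls of higher members numbered 0, and a stricter cut can only keep that at 0. The cut at 100 FPKM removed no member, since the lowest level of any member was 160 FPKM. A pseudocount of 1 is small beside such levels. Calls of lower members at q below 0.01 numbered 49, 64 and 70 at the 3 doses. Those of at least 2-fold numbered 17, 31 and 44, against 1.92%, 4.47% and 10.1% of all tested genes. Counted from the median of all genes, 2-fold calls numbered 10, 29 and 22. Shares of all tested genes were not computed for the cut at 0.01 or for the count from the median, so those counts have no background. The difference of medians with and without the Rap1 core was -0.13, -0.12 and -0.05. In a window of 250 bases, which holds the core for 8 of the 81 genes, it was -0.015, 0.074 and 0.026. With the longer consensus at 1 mismatch, found for 22 genes, it was -0.022, 0.022 and -0.015. The intron difference, -0.15 at 0.01 and -0.0074 at 0.5 µg/mL, was -0.081 and 0.015 among duplicated genes. At 0.5 µg/mL Spearman's rho of level and change, 0.186, was 0.283 with the mean of both levels and 0.318 with copies added together. The cause was not tested. Replicates could not be left out in turn because each level pools 3 samples. No paired analysis was possible because the tables hold no value per sample. The depth of the libraries is unknown.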

Other observations

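A few small subunit genes also stood apart from their group. At 0.5 µg/mL RPS28A had a log2 fold change of 0.39, RPS22B -0.10, RPS21A -0.40 and RPS27B -0.45, none of them called, with q = 0.15, 0.744, 0.081 and 0.0724 in the authors' deposited table. These were chosen after their values were seen, as the small subunit genes without a call at that dose.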
